A study of Homo sapiens with 12 samples.

Results

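The human SWI/SNF chromatin remodeller exists in versions that differ by a few subunits each, and 10 genes for such subunits are described here. ARID1A, ARID1B and DPF2 mark canonical BAF, ARID2, PBRM1, BRD7 and PHF10 mark PBAF, and BRD9, BICRA and BICRAL mark non-canonical BAF (ncBAF). They were taken by gene symbol from the count tables, as 10 of 60645 gene names. All 10 were present in each of the 12 tables and all 10 passed the filter on low counts, which left 20377 genes for testing.

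The study introduced the fusion EWS-FLI1 and different forms of ARID1A into HEK-293T, a line from human embryonic kidney, to ask about the IDR1b region of ARID1A in gene regulation by the fusion. Every group was made from a 293T line with ARID1A knocked out, so no group had the parental genotype. Cells overexpressed an empty vector in place of ARID1A ("no ARID1A"), ARID1A WT, or ARID1A ΔIDR1b, a form without the IDR1b part of its disordered region. Each of these 3 states was combined with either a second empty vector or EWS-FLI1, giving 6 groups of 2 libraries. The protocol gives 2 µg of EWS-FLI1 plasmid and 48 h of growth. The labels do not say whether the line is a single clone or whether the 2 repeats were separate cultures, so p-values measure the spread between these libraries, which may be technical.

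SWI/SNF complexes use the energy of ATP to move or evict nucleosomes, and all versions share a catalytic subunit and a common core. BAF forms around ARID1A or its paralog ARID1B, of which a complex holds one at a time, and takes in a DPF protein that reads modified histone tails. PBAF forms around ARID2 and adds PBRM1, BRD7 and PHF10. ncBAF has no ARID subunit and instead carries BRD9 with BICRA or its paralog BICRAL. EWS-FLI1, the fusion oncoprotein of Ewing sarcoma, binds GGAA repeats and is known to recruit BAF to them.

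The libraries held 11702251 to 14445379 counts over genes, and the share on mitochondrial genes lay between 1.75% and 2.40%. Of 6 markers listed for HEK-293T, 5 were present in every library (NEFL, INA, LIN28B, PAX2 and VIM, at 7.86 to 686 CPM, the counts scaled to library size), and NEFM reached at most 1 count. Of the markers of other cell types, PTPRC, CD3E and MYH6 never exceeded 2 counts, ALB and HBB reached 1.04 and 1.1 CPM, and COL1A1 lay between 73.0 and 105 CPM. FLI1, at whose locus part of the fusion is counted, was at most 0.146 CPM in the empty-vector libraries. With EWS-FLI1 it averaged 1759 ± 100 CPM (SD, n = 2) without ARID1A, 3568 ± 151 with ARID1A WT and 1897 ± 13.2 with ΔIDR1b. The fusion's transcript was thus higher with ARID1A WT than in the other states, and its amount and the ARID1A state cannot be told apart in comparisons of its effect between states.

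Levels of the 10 genes relative to each other were compared per length, as CPM divided by the kilobases of exon used in counting (FPKM), over the 4 no-ARID1A libraries. PHF10, a PHD-finger subunit of PBAF, was highest at 24.2 ± 1.76 FPKM (SD, n = 4). DPF2 followed at 13.96 ± 0.223, BRD7 at 11.9 ± 0.314, BRD9 at 10.1 ± 0.409 and ARID1A, counted from the knockout locus, at 9.91 ± 0.479 FPKM. PBRM1 reached 6.26 ± 0.325, BICRA 6.14 ± 0.376, ARID2 5.18 ± 0.248, ARID1B 2.99 ± 0.134 and BICRAL 0.784 ± 0.132 FPKM. The ranges of neighbouring genes overlapped for BRD9 and ARID1A (9.70 to 10.6 against 9.25 to 10.3) and for PBRM1 and BICRA (5.97 to 6.72 against 5.61 to 6.49), and the other neighbours in this order did not overlap. No complex had all of its genes high or low: PBAF held the highest gene and also ARID2, and ncBAF ran from BRD9 down to BICRAL. The place of ARID1B rests on its length, since the exon bases used in counting (45931) far exceed its longest GENCODE transcript (10813). Per kilobase of longest transcript its level was 12.7 against 18.4 for ARID1A and 7.43 for ARID2. The order of BRD7 and BRD9 also rests on the length used, at 19.0 and 19.9 per kilobase of longest transcript.

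**Figure D1:**
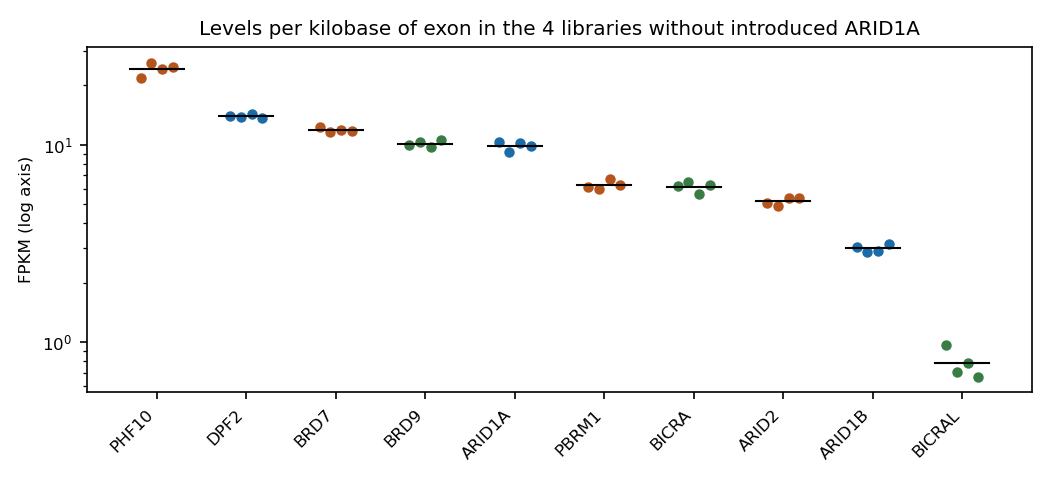
Level per length (FPKM, log axis) of each of the 10 genes in the 4 libraries without ARID1A, with points for single libraries and colours for BAF (blue), PBAF (orange) and ncBAF (green). PHF10 lies highest at a mean of 24.2 and BICRAL lowest at 0.784 FPKM.

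The ARID1A locus (GRCh38, chromosome 1, 26693236 to 26782104, plus strand, 24 exon blocks) was counted together with any transcript from the introduced ARID1A. Without ARID1A the 2 empty-vector libraries held 165 and 147 CPM and the 2 EWS-FLI1 libraries 162 and 157 CPM. With ARID1A WT the values were 2038 and 2074, and with EWS-FLI1 added 1843 and 2291 CPM. With ΔIDR1b they were 2695 and 2878, and with EWS-FLI1 2608 and 2621 CPM. All 8 libraries given ARID1A thus lay far above the 4 without it, and the ΔIDR1b libraries lay above the WT libraries with no overlap. Averaged over both vectors, ARID1A was 13.1-fold higher with WT than without ARID1A (log2 3.71, SE 0.07, adjusted p = 1.117e-28) and 17.1-fold higher with ΔIDR1b (log2 4.10, SE 0.08, adjusted p = 7.271e-30). ΔIDR1b exceeded WT 1.31-fold (log2 0.39, SE 0.07, adjusted p = 1.774e-05). Transcripts still read from the knockout locus do not check the knockout itself, because whole-gene counts do not show a small deletion. The form of ARID1A and its amount differ together between WT and ΔIDR1b, so they cannot be told apart in what follows.

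**Figure D2:**
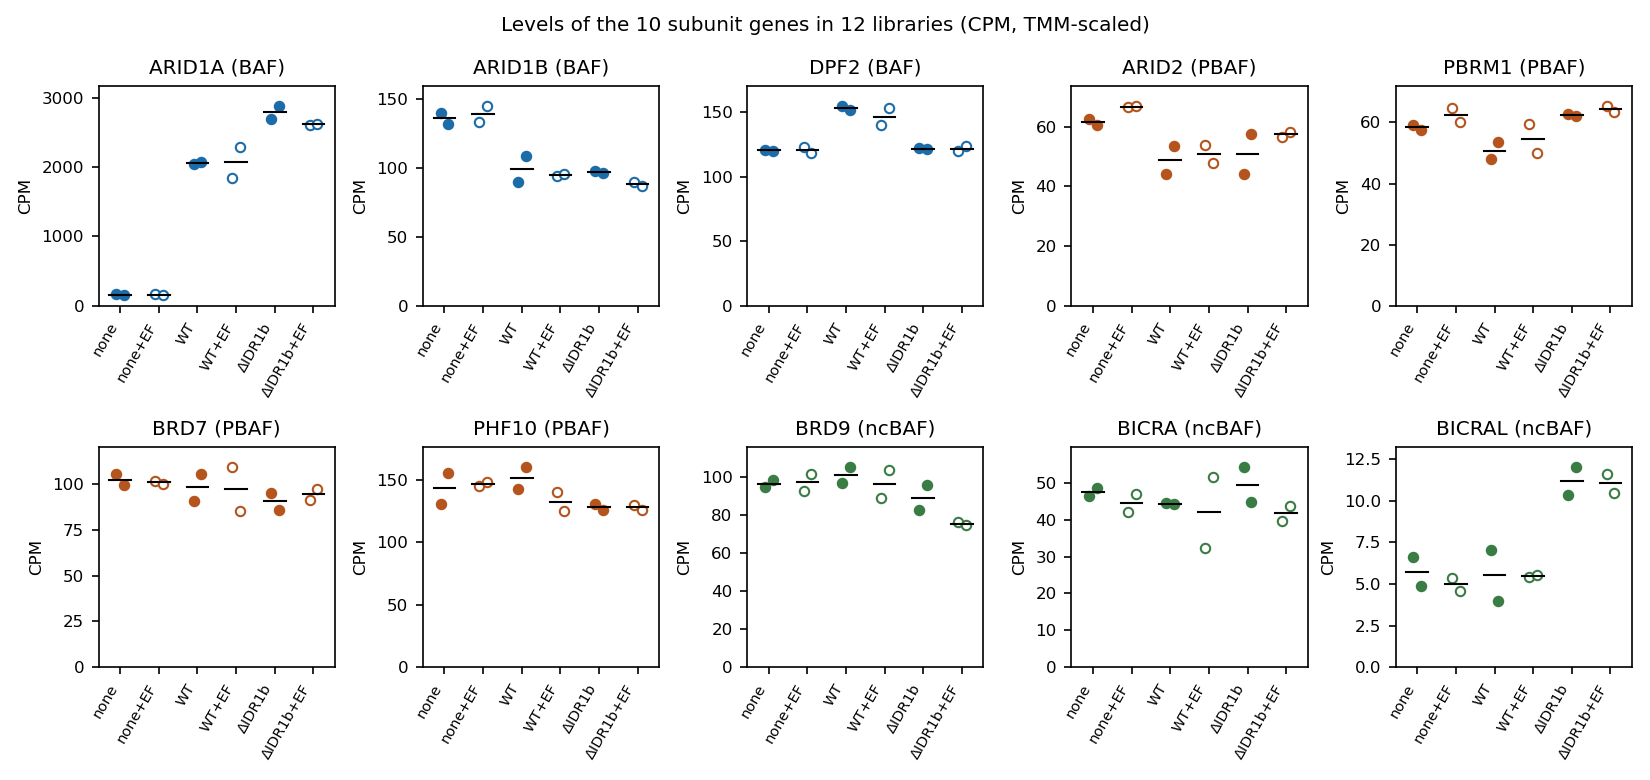
Level in CPM (linear axes from 0) of each of the 10 genes in the 12 libraries, with filled points for empty vector, open points for EWS-FLI1 (EF) and a black line for the mean of 2 libraries. ARID1B is lower in all 8 libraries with introduced ARID1A, DPF2 is higher with WT only, and BICRAL is higher with ΔIDR1b.

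ARID1B, the paralog that takes the place of ARID1A in BAF (chromosome 6, 156776020 to 157210779, plus strand, 32 exon blocks), was lower whenever ARID1A was introduced. It held 140 and 132 CPM without ARID1A, and 133 and 145 CPM there with EWS-FLI1. With WT it held 90.0 and 109, and with WT and EWS-FLI1 93.9 and 95.8 CPM. With ΔIDR1b it held 97.7 and 96.2, and with ΔIDR1b and EWS-FLI1 89.5 and 86.8 CPM. The lowest library without ARID1A was above the highest library with either form. The share of all tested genes whose libraries separate by state was not computed, for this gene or for those below. Averaged over both vectors, ARID1B fell by 0.50 on the log2 scale with WT (95% interval -0.66 to -0.35, 0.706-fold, adjusted p = 4.887e-06) and by 0.57 with ΔIDR1b (-0.73 to -0.42, 0.672-fold, adjusted p = 1.279e-07). The share of all tested genes called in these comparisons was 29.7% for WT and 49.8% for ΔIDR1b, at an adjusted p under 0.05. Between ΔIDR1b and WT the difference was -0.07 with a 95% interval of -0.23 to 0.08 (adjusted p = 0.490). With GC and length trends removed, ARID1B was called lower with ΔIDR1b than with WT (-0.17, adjusted p = 0.0173, and 0.0123 with the repeat block as well). The decrease was called within each vector as well, at -0.45 for WT with empty vector, -0.55 for WT with EWS-FLI1, -0.49 for ΔIDR1b with empty vector and -0.66 for ΔIDR1b with EWS-FLI1. The call for WT with empty vector was lost without the library of repeat 1 in either group of that comparison (adjusted p up to 0.181).

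DPF2, a subunit with paired PHD fingers that bind acetylated histone tails (chromosome 11, 65333852 to 65354262, plus strand, 8 exon blocks), was higher with WT only. It held 121 and 120 CPM without ARID1A and 123 and 118 CPM there with EWS-FLI1. With WT it held 155 and 152, and with WT and EWS-FLI1 140 and 153 CPM. With ΔIDR1b it held 122 and 121, and with ΔIDR1b and EWS-FLI1 120 and 123 CPM. The 4 WT libraries lay above the other 8 with no overlap, a separation whose share over all genes was not computed. Averaged over both vectors, DPF2 rose by 0.31 on the log2 scale with WT (95% interval 0.17 to 0.46, 1.24-fold, adjusted p = 9.096e-04), and with ΔIDR1b the difference from no ARID1A was 0.01 (-0.13 to 0.16). The test of ΔIDR1b against WT gave -0.30 (-0.44 to -0.16, adjusted p = 9.769e-04), beside 38.6% of all tested genes called in that comparison. Of the exon bases of DPF2, 14.36% are shared with a gene on the opposite strand, and with counting that does not use strand, reads from the pair cannot be told apart. With the trends of each library with GC content and length removed, a processing step chosen after seeing the data, the difference of DPF2 between ΔIDR1b and no ARID1A was -0.16 (adjusted p = 0.0111), while the rise with WT (0.27) and the difference from WT (-0.43) stayed called.

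**Figure D3:**
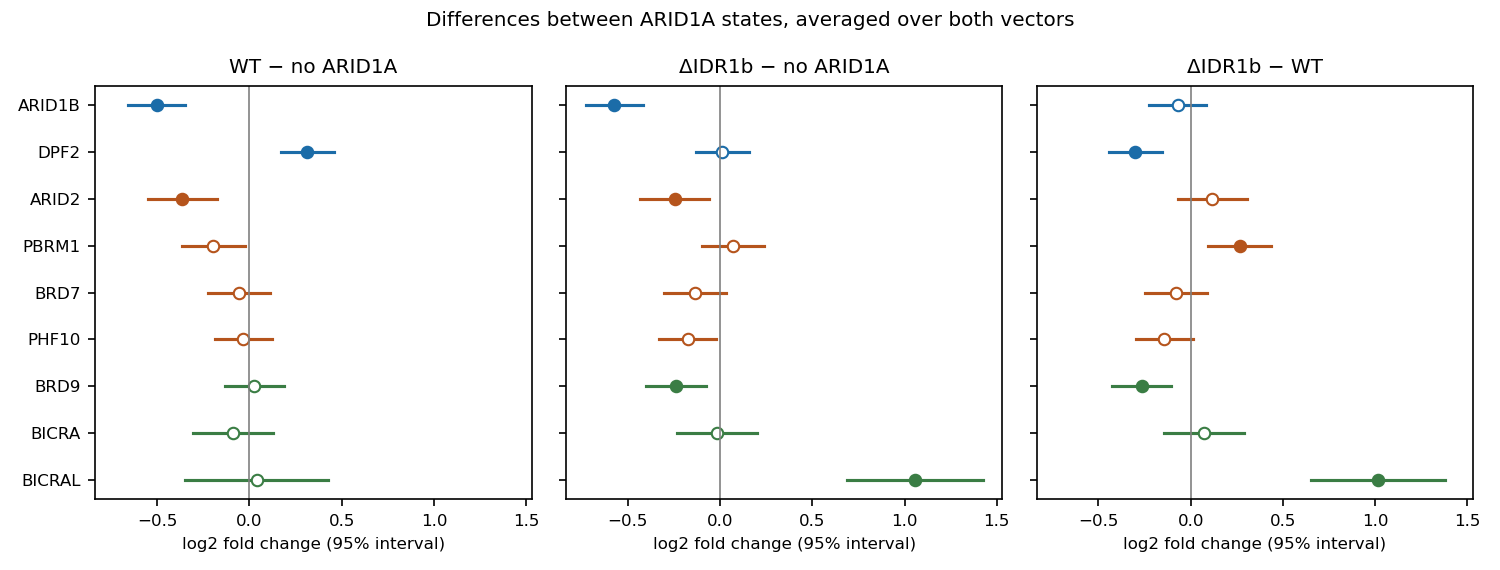
Log2 fold change between ARID1A states averaged over both vectors for the 9 genes other than ARID1A, with lines for 95% intervals, filled points for an adjusted p under 0.05 and open points otherwise. ARID1B is lower with both forms, DPF2 is higher with WT only (0.31), and BICRAL is higher with ΔIDR1b against either other state (1.06 and 1.02).

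The promoter windows of the genes whose differences between states were clearest are shown, to give the DNA around their annotated starts. They are RefSeq sequences (GRCh38.p14, plus strand) from 250 bases before to 50 after an annotated start, with GGAA and its reverse complement TTCC in capitals. ARID1B has 2 annotated starts, and its windows are chr6:156775776-156776075 and chr6:156777128-156777427. The DPF2 window is chr11:65333602-65333901, and the first of 3 BICRAL windows is chr6:42746737-42747036.
ARID1B first start: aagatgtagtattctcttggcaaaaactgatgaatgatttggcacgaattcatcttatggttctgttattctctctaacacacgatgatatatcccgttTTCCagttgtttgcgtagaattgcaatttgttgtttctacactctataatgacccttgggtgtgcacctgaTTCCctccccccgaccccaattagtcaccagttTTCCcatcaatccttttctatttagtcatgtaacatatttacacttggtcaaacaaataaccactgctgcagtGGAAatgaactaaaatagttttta
ARID1B second start: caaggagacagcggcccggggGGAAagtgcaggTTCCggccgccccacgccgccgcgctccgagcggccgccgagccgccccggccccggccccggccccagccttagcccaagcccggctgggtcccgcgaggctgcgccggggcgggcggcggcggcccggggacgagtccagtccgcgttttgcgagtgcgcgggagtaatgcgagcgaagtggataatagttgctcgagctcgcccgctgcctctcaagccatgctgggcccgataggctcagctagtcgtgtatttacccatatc
DPF2: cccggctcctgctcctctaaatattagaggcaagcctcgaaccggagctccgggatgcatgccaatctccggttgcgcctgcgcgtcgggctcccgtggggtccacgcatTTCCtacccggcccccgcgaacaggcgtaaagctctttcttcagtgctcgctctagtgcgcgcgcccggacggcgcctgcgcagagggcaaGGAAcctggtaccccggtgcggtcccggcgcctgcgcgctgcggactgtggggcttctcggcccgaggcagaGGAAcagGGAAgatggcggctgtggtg
BICRAL first start: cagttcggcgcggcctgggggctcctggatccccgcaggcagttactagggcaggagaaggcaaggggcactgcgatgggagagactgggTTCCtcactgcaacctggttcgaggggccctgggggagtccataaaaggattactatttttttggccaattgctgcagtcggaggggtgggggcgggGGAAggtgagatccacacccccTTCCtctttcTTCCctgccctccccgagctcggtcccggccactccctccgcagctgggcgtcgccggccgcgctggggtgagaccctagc
The first ARID1B window is AT-rich (37.7% GC) and the second GC-rich (72.0% GC), with 4 and 2 matches to GGAA on either strand. The DPF2 window (67.7% GC) and the first BICRAL window (65.3% GC) hold 4 matches each. The other 2 BICRAL windows, not printed, hold 0 and 9 matches, and 9 is the most in any member window. Of all 35116 RefSeq windows of this length, 95.5% hold GGAA, with a median of 3 matches, so most windows of any gene hold it. The pair GGAAGGAA occurs in 3.67% of all windows and, among the 15 windows of the 9 members in the table, once, in BRD7. The letters TGANTCA occur in 7.71% of all windows and in no member's window. ARID2 had no window in the table.

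ARID2, the DNA-binding scaffold that defines PBAF (chromosome 12, 45729706 to 45908040, plus strand, 25 exon blocks), was lower with both forms of ARID1A. It held 62.6 and 60.7 CPM without ARID1A and 66.6 and 67.0 CPM there with EWS-FLI1. With WT it held 44.04 and 53.6, and with WT and EWS-FLI1 54.0 and 47.9 CPM. With ΔIDR1b it held 44.1 and 57.5, and with ΔIDR1b and EWS-FLI1 56.7 and 58.4 CPM. The 4 libraries without ARID1A were the 4 highest, although the repeats of WT and of ΔIDR1b with empty vector lay far apart. Averaged over both vectors, ARID2 fell by 0.36 on the log2 scale with WT (95% interval -0.55 to -0.18, 0.778-fold, adjusted p = 0.002711) and by 0.25 with ΔIDR1b (-0.43 to -0.06, 0.843-fold, adjusted p = 0.02402). ΔIDR1b and WT differed by 0.12 (-0.07 to 0.30, adjusted p = 0.332). The ΔIDR1b call was lost when any one of 5 libraries was left out, the no-ARID1A library of repeat 1 with empty vector, either no-ARID1A library with EWS-FLI1, or the ΔIDR1b library of repeat 1 with either vector, with an adjusted p of up to 0.220.

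PBRM1, the PBAF subunit with a row of bromodomains that bind acetylated histones (chromosome 3, 52545352 to 52685917, minus strand, 36 exon blocks), was higher with ΔIDR1b than with WT. It held 59.2 and 57.6 CPM without ARID1A and 64.9 and 60.1 CPM there with EWS-FLI1. With WT it held 48.1 and 53.5, and with WT and EWS-FLI1 59.5 and 49.96 CPM. With ΔIDR1b it held 62.8 and 62.1, and with ΔIDR1b and EWS-FLI1 65.4 and 63.5 CPM. The ΔIDR1b libraries lay above all 4 WT libraries and within or above the range without ARID1A. ΔIDR1b exceeded WT by 0.27 on the log2 scale (95% interval 0.10 to 0.44, 1.20-fold, adjusted p = 0.01183), while the differences from no ARID1A were -0.20 for WT (adjusted p = 0.0782) and 0.07 for ΔIDR1b (-0.10 to 0.24). The levels of long genes relative to short ones also moved with the ΔIDR1b state. Over 10695 genes with higher mean levels, the slope on length was 0.033 to 0.092 log2 per doubling in the 4 ΔIDR1b libraries. It was -0.085 to -0.005 in the other 8. With that length trend removed the PBRM1 difference was 0.16 (adjusted p = 0.111), and with GC and length trends both removed it was 0.21 and called (adjusted p = 0.00757). It was not called without the WT library of repeat 1 with empty vector. PBRM1 was called lower with WT than without ARID1A under 7 of 24 alternative settings. Among them were upper-quartile scaling, removal of the length trend, and a fit that blocked on the repeat number inside each vector (-0.20, adjusted p = 0.036).

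BRD7, a bromodomain subunit of PBAF (chromosome 16, 50313487 to 50368988, minus strand, 19 exon blocks), ranged from 85.4 to 109 CPM, and its lowest and highest libraries were the 2 with WT and EWS-FLI1. Its differences were -0.06 for WT against no ARID1A (95% interval -0.22 to 0.11), -0.14 for ΔIDR1b against no ARID1A (-0.30 to 0.03) and -0.08 for ΔIDR1b against WT (-0.25 to 0.09), none of them called. BRD7 was called lower with ΔIDR1b than without ARID1A under 5 of 24 alternative settings, among them removal of the length trend (-0.27, adjusted p = 0.00559). Of its exon bases, 42.2% are shared with genes on the opposite strand, ADCY7 and an unnamed gene, more than for any other member. PHF10 (chromosome 6, 169703902 to 169725566, minus strand, 13 exon blocks) ranged from 125 to 160 CPM. It was -0.03 for WT against no ARID1A (-0.19 to 0.12) and -0.18 for ΔIDR1b against no ARID1A (-0.33 to -0.02, adjusted p = 0.0516), just outside the threshold. The PHF10 difference with ΔIDR1b was called lower under 12 of 24 alternative settings, among them the fit that blocked on the repeat number inside each vector (-0.17, adjusted p = 0.0189).

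BRD9, the bromodomain protein that defines ncBAF (chromosome 5, 850291 to 892801, minus strand, 22 exon blocks), was lower with ΔIDR1b, and its lowest libraries were those with EWS-FLI1. It held 94.8 and 98.3 CPM without ARID1A and 92.7 and 102 CPM there with EWS-FLI1. With WT it held 96.8 and 105, and with WT and EWS-FLI1 89.1 and 104 CPM. With ΔIDR1b it held 82.5 and 95.7, and with ΔIDR1b and EWS-FLI1 76.2 and 74.7 CPM. Of the 4 ΔIDR1b libraries, 3 lay below all 8 others, and the library of repeat 2 with empty vector lay among them. Averaged over both vectors, BRD9 fell by 0.24 on the log2 scale with ΔIDR1b against no ARID1A (95% interval -0.40 to -0.08, 0.847-fold, adjusted p = 0.01192) and by 0.27 against WT (-0.43 to -0.11, 0.832-fold, adjusted p = 0.007774). WT and no ARID1A differed by 0.03 (-0.13 to 0.19). Within vectors the decrease was called with EWS-FLI1 (-0.36 against no ARID1A and -0.35 against WT) and not with empty vector (-0.12 and -0.18), but the tests of the difference between vectors were not called (-0.25, 95% interval -0.57 to 0.07, and -0.17, -0.49 to 0.15). Without the ΔIDR1b library of repeat 1 with empty vector neither averaged difference of BRD9 was called (adjusted p up to 0.0998), and without the no-ARID1A library of repeat 2 with EWS-FLI1 the difference from no ARID1A was not. Within EWS-FLI1, both calls of BRD9 were lost without either ΔIDR1b library. The call against no ARID1A was also lost without its library of repeat 2 (-0.30, adjusted p = 0.143), and that against WT without the WT library of repeat 2 (-0.24, adjusted p = 0.141) or with only the libraries compared.

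BICRAL, the less abundant of the 2 GLTSCR1-type scaffolds of ncBAF (chromosome 6, 42746958 to 42868558, plus strand, 16 exon blocks), was higher with ΔIDR1b than in either other state. It held 6.62 and 4.86 CPM without ARID1A and 5.37 and 4.58 CPM there with EWS-FLI1. With WT it held 7.07 and 3.96, and with WT and EWS-FLI1 5.42 and 5.53 CPM. With ΔIDR1b it held 10.4 and 12.0, and with ΔIDR1b and EWS-FLI1 11.6 and 10.5 CPM. The 4 ΔIDR1b libraries lay above the other 8 with no overlap, a separation whose share over all genes was not computed. These CPM values rest on 53 to 168 counts per library, the fewest of any member. Averaged over both vectors, BICRAL rose 2.08-fold with ΔIDR1b against no ARID1A (log2 1.06, 95% interval 0.69 to 1.42, adjusted p = 9.495e-06) and 2.02-fold against WT (log2 1.02, 0.65 to 1.38, adjusted p = 2.976e-05). WT and no ARID1A differed by 0.04 (-0.35 to 0.43). Within vectors the rise over no ARID1A was 0.96 with empty vector and 1.15 with EWS-FLI1, and over WT 1.02 and 1.01, all called. With empty vector, the call over WT was lost without the WT library of repeat 2 (0.67, adjusted p = 0.112), and the call over no ARID1A without the no-ARID1A library of repeat 2 (0.76, adjusted p = 0.0732).

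BICRA, its paralog (chromosome 19, 47608196 to 47703277, plus strand, 16 exon blocks), was not called in the comparisons of states, but single settings changed that. It lay between 42.0 and 48.6 CPM without ARID1A, between 32.4 and 51.6 with WT and between 39.8 and 54.2 with ΔIDR1b. The lowest and the second highest value were the 2 libraries with WT and EWS-FLI1. Those 2 libraries also had the steepest slopes of level on GC content, at -0.148 and 0.109 log2 per 10% GC, against -0.070 to 0.064 in the other 10. The slopes were taken over genes with a mean of at least 10 CPM and a known GC content. The longest BICRA transcript has 68.6% GC, the highest of the members, but a link of GC to those 2 BICRA levels was not tested. Its differences between states, averaged over vectors, were -0.09 (95% interval -0.31 to 0.13) for WT against no ARID1A, -0.02 (-0.23 to 0.20) for ΔIDR1b against no ARID1A and 0.07 (-0.14 to 0.29) for ΔIDR1b against WT. With GC and length trends removed, BICRA was called lower with ΔIDR1b than without ARID1A (-0.21, adjusted p = 0.0171), and also within EWS-FLI1 (-0.26, adjusted p = 0.0497). Without the library of repeat 2 with WT and EWS-FLI1, it was called lower with WT than without ARID1A (-0.27, adjusted p = 0.023) and higher with ΔIDR1b than with WT (0.26, adjusted p = 0.0262).

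The transcript ratio of the 2 ncBAF paralogs moved with BICRAL, while their proteins and the make-up of the complex were not measured in these libraries. Per length, the ratio of BICRAL to BICRA was 0.133 ± 0.033 (SD, n = 2) without ARID1A, 0.123 ± 0.024 there with EWS-FLI1, 0.136 ± 0.054 with WT and 0.150 ± 0.046 with WT and EWS-FLI1. It was 0.252 ± 0.059 with ΔIDR1b and 0.292 ± 0.040 with ΔIDR1b and EWS-FLI1, so BICRA transcripts outnumbered BICRAL transcripts in every group. The ratio of BRD9, in ncBAF, to BRD7, in PBAF, was 0.844 ± 0.057 without ARID1A and 0.715 ± 0.041 with ΔIDR1b and EWS-FLI1. The other groups lay between 0.859 and 0.919, with an SD of up to 0.25 in the group with WT and EWS-FLI1.

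Counted by complex and averaged over vectors, WT against no ARID1A gave 1 higher and 1 lower of the 2 BAF genes other than ARID1A, 1 lower of 4 PBAF genes and none of 3 ncBAF genes. ΔIDR1b against no ARID1A gave 1 lower BAF gene, 1 lower PBAF gene, and 1 higher and 1 lower ncBAF gene. ΔIDR1b against WT gave 1 lower BAF gene, 1 higher PBAF gene, and 1 higher and 1 lower ncBAF gene. The share of all tested genes called was 15.7% higher and 14% lower in the first, 24.9% and 24.8% in the second, and 18.3% and 20.3% in the third. In none of the 3 comparisons were all genes of a complex called in 1 direction, and joint movement of a complex was not tested. All 4 PBAF genes had a negative difference for WT against no ARID1A, from -0.36 for ARID2 to -0.03 for PHF10, but only ARID2 was called. The intervals of BRD7 (-0.22 to 0.11) and PHF10 (-0.19 to 0.12) held both signs. With empty vector alone PHF10 was 0.08, while the other PBAF genes stayed negative. The median over all genes was itself negative (-0.02). The share of all genes with a negative difference was not computed, so the shared sign is not read as movement of PBAF. Of the 9 genes other than ARID1A, 3, 4 and 4 were called, shares near the 29.7%, 49.8% and 38.6% of all tested genes. Their median log2 differences were -0.06, -0.14 and -0.07, against -0.02, 0.02 and 0.02 over all genes. These counts come from the fit without removal of trends. With GC and length trends removed, 7 of the 9 were called lower and BICRAL higher for ΔIDR1b against no ARID1A. That setting, chosen after seeing the data, called 27.6% of all tested genes lower and 24.6% higher. The comparisons with no ARID1A share the same 4 control libraries, and the comparison of ΔIDR1b with WT shares libraries with both.

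Within empty vector, the calls other than ARID1A were ARID1B and DPF2 for WT against no ARID1A (11.7% of all tested genes were called), ARID1B and BICRAL for ΔIDR1b against no ARID1A (33.3%) and DPF2 and BICRAL for ΔIDR1b against WT (24.5%). Within EWS-FLI1 they were ARID1B, DPF2 and ARID2 (18.1%), ARID1B, BRD9 and BICRAL (35.9%), and BRD9 and BICRAL (18.6%). The 2 libraries on each side did not overlap in any of these calls, but this also held for some differences that were not called. An example is DPF2 for ΔIDR1b against no ARID1A with empty vector, at 0.01 (adjusted p = 0.930). The share of all genes without overlap was not computed, here or for the separations of libraries given above. With empty vector, the calls of DPF2 were each lost when any one of the 4 libraries compared was left out (adjusted p up to 0.153 for WT against no ARID1A and 0.096 for ΔIDR1b against WT), and the former also with upper-quartile scaling. Within EWS-FLI1, the call of ARID2 was lost without either no-ARID1A library, without the WT library of repeat 2 (adjusted p up to 0.154), and with only the libraries compared. The rise of DPF2 with WT in the presence of EWS-FLI1 (0.28, adjusted p = 0.0489) was called under 7 of 24 alternative settings only, whereas its average over vectors was called under all 24.

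**Figure D4:**
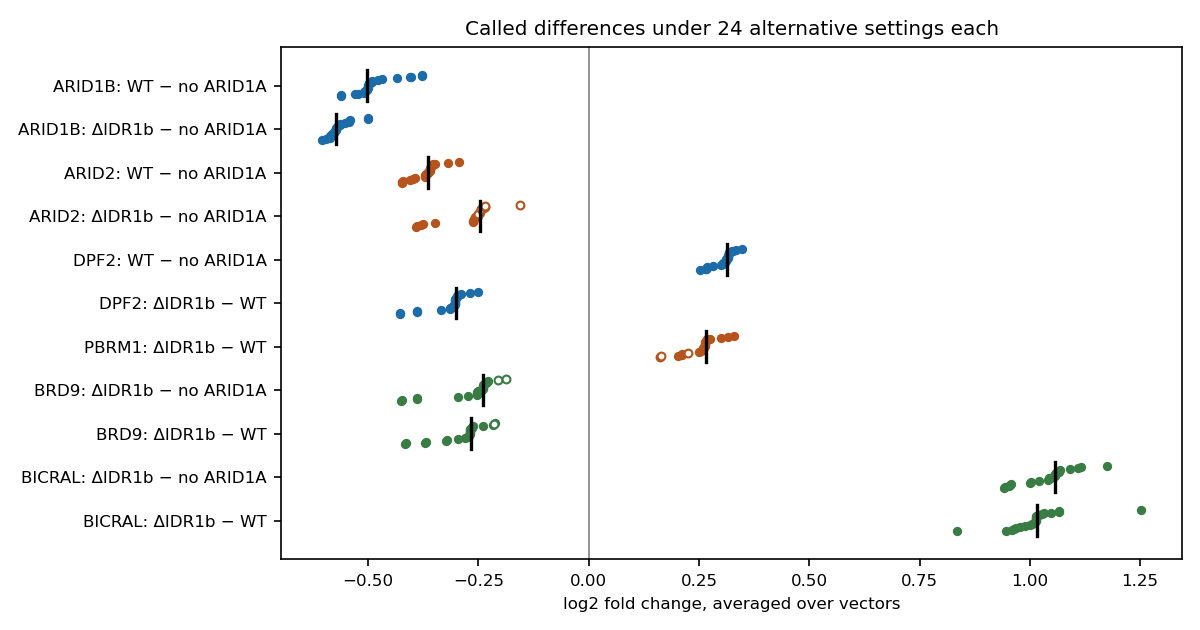
Each difference between states called as an average over both vectors (black bar), for genes other than ARID1A. Points give its values under 24 alternative settings, filled where called and open where not, on the log2 scale. No value changes sign, and the open points belong to ARID2 and BRD9 for ΔIDR1b against no ARID1A, and to PBRM1 and BRD9 for ΔIDR1b against WT.

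EWS-FLI1 itself changed none of the 10 genes past the threshold. In edgeR's test none was called without ARID1A (0.0442% of all tested genes called), with WT (0.221%), with ΔIDR1b (0.172%) or averaged over the 3 states (0.466%), and DESeq2 called none either. At an unadjusted p under 0.05 there was 1 of 10 with ΔIDR1b, BRD9, and 0 of 10 in the other 3 comparisons. BRD9 with ΔIDR1b held 82.5 and 95.7 CPM with empty vector and 76.2 and 74.7 CPM with EWS-FLI1, a difference of -0.24 (95% interval -0.47 to -0.01, adjusted p = 0.906). Averaged over states, the 9 genes other than ARID1A lay between -0.14 for BICRA (95% interval -0.32 to 0.04) and 0.12 for ARID2 (-0.03 to 0.27). The widest interval belonged to BICRAL, -0.38 to 0.23, so changes of its level within those bounds are not excluded by these libraries.

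**Figure D5:**
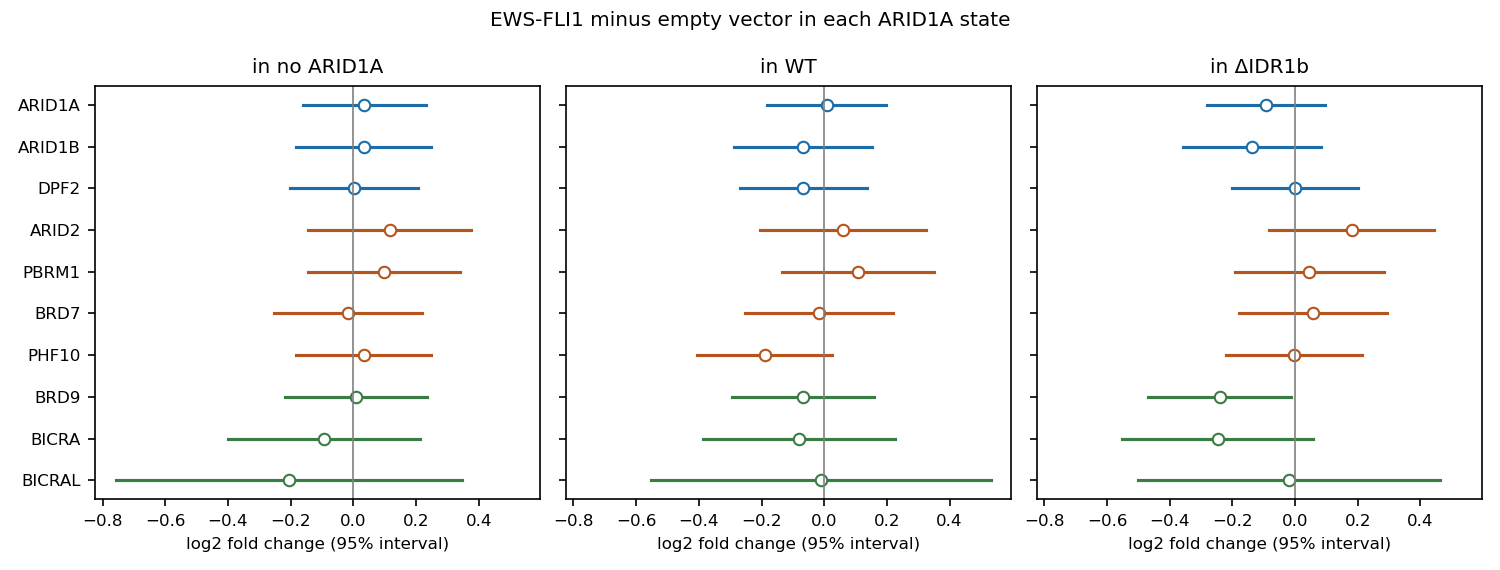
Log2 fold change between EWS-FLI1 and empty vector for the 10 genes, 1 panel per ARID1A state, with lines for 95% intervals and open points because none was called. All intervals include 0 except that of BRD9 with ΔIDR1b, which ends at -0.01.

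The effect of EWS-FLI1 was also not called as different between states for any of the 10 genes, where 0.0245% of all tested genes were called for WT minus no ARID1A, 0.0196% for ΔIDR1b minus no ARID1A and 0% for ΔIDR1b minus WT. For the 9 genes other than ARID1A these differences of effects lay between -0.22 (PHF10) and 0.20 (BICRAL) for WT minus no ARID1A, and between -0.25 (BRD9) and 0.19 (BICRAL) for ΔIDR1b minus no ARID1A. For ΔIDR1b minus WT they lay between -0.17 (BRD9) and 0.19 (PHF10). The intervals remain wide: that of BICRAL for ΔIDR1b minus no ARID1A ran from -0.55 to 0.92, and that of ARID1B from -0.48 to 0.14.

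The other 19 SWI/SNF genes, the catalytic, core and BAF-associated subunits, were all tested. With WT against no ARID1A, 4 were called higher (ACTL6A, BCL7A, SMARCD2 and SS18, by 0.25 to 0.50 log2) and 2 lower (SMARCD3 and SMARCE1), with a median of 0.06. With ΔIDR1b against no ARID1A, 2 were higher (BCL7A and SS18) and 8 lower (ACTB, BCL7B, BCL7C, SMARCB1, SMARCC2, SMARCD3, SMARCE1 and SS18L1), with a median of -0.14. With ΔIDR1b against WT, 0 were higher and 11 lower (ACTB, ACTL6A, BCL7B, BCL7C, SMARCA2, SMARCB1, SMARCC2, SMARCD1, SMARCD2, SMARCE1 and SS18L1), with a median of -0.23 against 0.02 over all genes. Over all tested genes, 15.7% were called higher and 14% lower in the first of these comparisons, 24.9% and 24.8% in the second, and 18.3% and 20.3% in the third. The differences of these 19 genes were not examined under the alternative settings, among them removal of the length trend. The difference of largest size in this list was that of SMARCE1, a DNA-binding subunit shared by BAF and PBAF and absent from ncBAF. It held 26.0 and 26.7 CPM without ARID1A, 15.2 and 21.7 with WT, and 7.02 and 7.65 with ΔIDR1b, all with empty vector. Averaged over vectors it fell by 1.92 on the log2 scale with ΔIDR1b against no ARID1A (SE 0.15, adjusted p = 2.845e-12) and by 1.26 against WT (SE 0.16, adjusted p = 1.288e-07). None of the 19 was called for EWS-FLI1 in any state.

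Genes with the pattern most like each member were ranked by Pearson's r of log2 CPM over the 12 libraries among 16694 genes with a mean of at least 1 CPM, as a description over libraries that share their groups. The pattern of ARID1B was closest to NEAT1 (0.983), the long RNA of paraspeckles, and CNTROB (0.978), a centriole protein. That of DPF2 was closest to VAT1 (0.957) and CDK9 (0.955), the kinase of the elongation factor P-TEFb. That of BICRAL was closest to CYREN (0.961), a regulator of DNA end joining, and TMEM150C (0.960). For PBAF genes the closest were DIS3L for ARID2 (0.954), ZNF827 for PBRM1 (0.938), an unnamed gene for BRD7 (0.916) and TSLP for PHF10 (0.928), with ARHGAP10 (0.911), ANKRD34A (0.934), ADSS2 (0.884) and another unnamed gene (0.888) next. For BRD9 they were SNORA54 (0.956) and ABCD4 (0.950), and for BICRA LSR (0.926) and TP73 (0.923). No member was among the closest of another.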

How the data were processed

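PolyA RNA of HEK-293T cells was sequenced, and the authors deposited 1 table of whole-number read counts per gene for each of 12 libraries. Per the file headers, counting used featureCounts 2.0.1 with the GENCODE 41 annotation of GRCh38 patch 13, and the submitters' processing notes also name STAR, SAMtools and edgeR. Counting did not use strand, per the file headers. The introduced ARID1A and EWS-FLI1 are counted at the ARID1A, EWSR1 and FLI1 loci.

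Counts were tested with edgeR 4.0.16 (R 4.3.3, limma 3.58.1): TMM scaling, genes with too few counts left out (minimum count 10, minimum total 15), a quasi-likelihood fit with 1 mean per group over all 12 libraries, 16 comparisons, and Benjamini-Hochberg adjustment over 20377 genes, with a threshold of 0.05. TMM factors were 0.932 to 1.08, and the common biological coefficient of variation was 10.1%. CPM values use these factors, and FPKM divides them by the exon length in the deposited tables. Intervals are 95% intervals of the fit. The script was tested on simulated data.

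Libraries with the same repeat number deviated together within a vector (r of 0.104 to 0.412 in 6 pairs of groups). Across vectors r was negative in all 9 pairs (-0.223 to -0.008), and the reason was not tested. Both used 10695 genes with a mean of at least 10 CPM, as did the slopes on length. The slopes on GC content used those of known GC content. The labels do not state the pairing within vectors, which comes from the data. Alternatives were other scalings, no filter, DESeq2 1.42.0, only the libraries compared, each library left out, blocks for the repeat number, and removal of length trends. GC trends, scaling without the introduced genes and transcript lengths were added after seeing the data, with GC content known for 96.9% of tested genes. The 10 members were named by the list given for them, other genes by fixed lists of SWI/SNF and remodeller genes, and the 2 genes most like each member by correlation. Members and lists were chosen with earlier results of these data known.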

Additional observations from a re-analysis of the deposited data

How the results depend on the processing

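Each difference between states was recomputed under 24 alternatives. Of the differences averaged over vectors, those of ARID1B with both forms (-0.56 to -0.38 and -0.60 to -0.50), DPF2 for WT against no ARID1A (0.25 to 0.35) and ΔIDR1b against WT (-0.43 to -0.25), ARID2 with WT (-0.42 to -0.29) and BICRAL with ΔIDR1b (0.94 to 1.18 and 0.83 to 1.25) kept their call in all 24. The single reversal was DPF2 for ΔIDR1b against no ARID1A, -0.159 in place of 0.01, called after GC and length trends were removed (adjusted p = 0.0111, and 0.00891 with the repeat block as well), and the cause was not tested. The counts of members below include ARID1A where it was called, and its locus also counts the introduced transcript. They are therefore not directly comparable with the shares of all genes. Members called, of 10, changed by over 1.5 times as follows. With GC and length trends removed, with or without the replicate block, they were 9 in place of 5 for ΔIDR1b against no ARID1A averaged over vectors, 6 in place of 3 with empty vector and 8 in place of 4 with EWS-FLI1. They were then also 5 in place of 3 for ΔIDR1b against WT and for WT against no ARID1A, both with empty vector. Without the block, the shares of all genes called were then 52.2%, 37.3%, 39.5%, 31% and 18.7%, in the order given. Before removal they were 49.8%, 33.3%, 35.9%, 24.5% and 11.7%. With the length trend alone removed, members called with empty vector were 5 for ΔIDR1b against no ARID1A (7 with the block). They were 5 for ΔIDR1b against WT (5 with the block). The shares of all genes called were then 31.7% and 24.8%, and 36.2% and 30.3% with the block. The replicate block within each vector alone gave 5 for ΔIDR1b against WT with empty vector, where it called 30% of all genes. It added PBRM1 (0.30) and PHF10 (-0.23) there. It also added DPF2 (-0.27) for that comparison with EWS-FLI1, ARID2 (-0.35 and -0.29) for WT and ΔIDR1b against no ARID1A with empty vector, and PBRM1 (-0.20) and PHF10 (-0.17) to the averages of WT and of ΔIDR1b against no ARID1A, and ended no call. With only the libraries compared in the fit, fewer libraries estimate the spread. With EWS-FLI1, 2 in place of 4 were then called for WT against no ARID1A and 1 in place of 3 for ΔIDR1b against WT. The share of all genes called was not computed for these fits or for those that left out 1 library. Leaving out 1 library gave 4 to 5 members for WT, 3 to 6 for ΔIDR1b and 4 to 7 for ΔIDR1b against WT on average, 1 to 4, 2 to 4 and 1 to 5 with empty vector, and 2 to 4, 3 to 4 and 2 to 3 with EWS-FLI1. Effects of EWS-FLI1 and their differences between states gave 0 to 0 under these and every other alternative. With longest-transcript lengths the ratio of BICRAL to BICRA was 0.234 with ΔIDR1b and EWS-FLI1. The ratio of BRD9 to BRD7 was then 1.04 and 1.06 without ARID1A (empty vector and EWS-FLI1), 1.14 with WT, 1.09 with ΔIDR1b and 0.882 with ΔIDR1b and EWS-FLI1. With no length correction it was 0.943, 0.960, 1.03 and, with ΔIDR1b and EWS-FLI1, 0.799. Removal of GC content taken from the genome was not run. BICRAL rests on 2 libraries per group and 53 to 168 counts per library, and the parts of depth and of spread between libraries in its interval were not separated.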

Other observations

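Of 24 genes of other chromatin remodelling families (ISWI, NuRD, INO80 and CHD types), all were tested. As averages over vectors, WT against no ARID1A gave 5 higher and 2 lower, ΔIDR1b against no ARID1A gave 8 and 7, and ΔIDR1b against WT gave 8 and 5. Over all tested genes the shares called higher and lower were 15.7% and 14%, 24.9% and 24.8%, and 18.3% and 20.3%. The list's median log2 differences were 0.03, 0.02 and 0.01. None of the 24 genes was called for EWS-FLI1 in any state in edgeR's test.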
